A study of Mus musculus with 4 samples.

Results

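Progenitor.3 is 1 of the 7 classes of epithelial cells that the authors assigned to dissociated mouse colonic organoids, and its members were taken here as every cell that carried this name in the deposited cell annotation. The class held 305 of 6155 cells (4.96%), or 305 of 4172 epithelial cells (7.31%, 95% exact interval 6.54 to 8.14). The organoids, which are small epithelial cultures that grow from crypts in a gel, came from the distal colon of wild-type mice and of whole-body Tnfr2-/- mice aged 16 weeks, and were used at passage 5. Tnfr2-/- cultures lack tumor necrosis factor receptor 2 (TNFR2, gene Tnfrsf1b) in every cell of the donor, so the mesenchymal cells that grew beside the epithelium lacked it as well. Each genotype was grown without added cytokine (vehicle, "untreated") or with 20 ng/ml TNF from day 1 to day 6 and was harvested on day 7, dead cells having been depleted by Annexin V before capture. There was 1 library of 1 culture for each of the 4 conditions, so no difference between conditions could be tested and every interval covers counting error only.

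Cells that copy their DNA must also make the histones that package it, and the main histone genes are transcribed in S phase as short messages that end in a conserved stem-loop in place of a poly(A) tail. Progenitor cells in the colonic crypt divide and supply both the absorptive and the secretory lineages. In 3′ droplet sequencing each captured RNA molecule is counted once by its unique molecular identifier (UMI), so the number of UMIs of a cell reflects both the RNA it held and the share of it that was captured.

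The Progenitor.3 cells were 95 in the untreated wild-type library, 148 in the TNF-treated wild-type library, 51 in the untreated Tnfr2-/- library and 11 in the TNF-treated Tnfr2-/- library. The same order is kept for all lists of 4 values that follow. Among the epithelial cells of each library the class had a share of 8.42% (exact interval 6.87 to 10.2), 12.7% (interval 10.9 to 14.8), 4.99% (interval 3.73 to 6.50) and 1.28% (interval 0.642 to 2.28). One of the genes that mark the class, Hist1h3c, itself differed in level between the libraries, so these shares are given as a description of the sample and not as a comparison of conditions. The TNF-treated Tnfr2-/- library had under 50 Progenitor.3 cells, and its values are printed but enter no count over libraries. Both Tnfr2-/- libraries lacked Xist in Progenitor.3 while both wild-type libraries held it, with values given below. Library totals ran from 44547639 to 87228093 UMIs. The summed Progenitor.3 cells held 1467192, 1710276, 530565 and 106429 UMIs, so that a count of 0 allows up to 2.05, 1.75, 5.65 and 28.2 counts per 1000000 UMIs (CPM) of the class.

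Hist1h3c, a replication-dependent histone H3 gene, leads the markers of the class. It lies on chromosome 13 (GRCm38, minus strand, chr13:23744973-23745602) and its annotated transcript holds the histone stem-loop near its end. The 3′ sites of 5 histone genes detected in Progenitor.3 are printed below, because this element sets their messages apart from nearly all others. They were read from GENCODE M21 transcripts of GRCm38, 5′ to 3′ on the sense strand, with the 16 bases of the stem-loop in capitals and up to 5 flanking bases in lower case.
Hist1h3c: aaaGGCTCTTTTAAGAGCCaccta
Hist1h2ap: aaaGGCTCTTTTCAGAGCCatc
Hist1h2bj: aaaGGCTCTTTTCAGAGCCacgca
Hist2h2ac: aaaGGCTCTTTTTAGAGCCaccaa
Hist1h4h: aaaGGCCCTTTTCAGGGCCgccca
The stem-loop of Hist1h3c spans chr13:23745047-23745062 (minus strand), that of Hist1h2ap chr13:21833029-21833044 (minus strand), that of Hist1h2bj chr13:22043638-22043653 (plus strand), that of Hist2h2ac chr3:96220418-96220433 (minus strand) and that of Hist1h4h chr13:23531458-23531473 (plus strand). The histone stem-loop pattern held the outer G and C bases of the stem and the T and A bases of its inner part fixed. The other bases were free. The pattern was searched on the sense strand of the last 150 bases of the longest annotated coding transcript of each gene. It was present in 21 of 67 histone genes (31.3%), and in all 21 the stem bases paired. It was present in 43 of 21682 other genes (0.198%), with a fully paired stem in 1 of them. The match describes the annotated sequence only. A model that stops before the loop or runs far past it gives no match. Histone genes without one had models from 312 bases (Hist1h4k) to 7425 (Hist1h1d). The 31.3% is therefore not the share of histone genes that have the element. Hist1h3c gave 99, 355, 52 and 7 UMIs in Progenitor.3 and Hist2h2ac gave 76, 217, 35 and 1. Hist1h2ap gave 69, 162, 30 and 0 UMIs. Hist1h2bj stayed lower at 29, 57, 5 and 1 UMIs, and Hist1h4h at 20, 47, 6 and 1. In all, 60 of the 67 histone genes had at least 1 UMI in the class, though near-identical copies within this family mean that reads of single genes could have been split or lost.

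What set Progenitor.3 apart first was a low yield of RNA per cell together with a low mitochondrial share. The median cell held 7137, 9570, 6364 and 6560 UMIs in the 4 libraries, whereas the median cell of Progenitor.1, the large progenitor class, held 43626, 44064, 46629 and 42680. Over all 305 cells the median was 8040 UMIs, with quartiles of 4168 and 13684 and a range from 1041 to 223496. Whether such cells held less RNA or gave up less of it in capture cannot be told apart from UMI totals.

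The share of UMIs from mitochondrially encoded genes had a median of 0.837%, 0.914%, 0.346% and 2.84% in Progenitor.3 and 2.92%, 3.83%, 4.56% and 5.75% in Progenitor.1. The class was lower than Progenitor.1 in each library by this median. Under 1% of UMIs were mitochondrial in 170 of 305 Progenitor.3 cells (55.7%; 53, 77, 36 and 4 by library) but in 12 of 1623 Progenitor.1 cells (0.739%). Such cells were found in other classes too, in 89 of 1284 Progenitor.2 cells (6.93%) and 16 of 255 Secretory-Reg4-Spdef-Lyz1 cells (6.27%). In untreated Tnfr2-/- Progenitor.2 they were 42 of 233 (18.0%). No mitochondrial UMI at all was found in 11 Progenitor.3 cells and in 0 Progenitor.1 cells.

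The class was uneven in this respect. A mitochondrial share above 10% was found in 36 of 305 Progenitor.3 cells (11.8%; 11, 23, 1 and 1 by library) and in 114 of 1623 Progenitor.1 cells (7.02%). The summed class did not show the low median in the wild type. Deep cells weigh most on such sums. In the untreated wild type the 5 cells above 60000 UMIs had mitochondrial shares of 3.01%, 3.56%, 3.13%, 2.88% and 10.4%. How much the deep cells and the cells above 10% each added was not tested. Summed over cells, mitochondrial genes took 3.59%, 4.02%, 1.40% and 5.67% of Progenitor.3 UMIs and 3.33%, 4.31%, 5.09% and 5.84% of those of Progenitor.1. The cells under 1%, from 1% to 10% and above 10% had similar depths, with medians of 7710.5, 7857 and 8670.5 UMIs. In Progenitor.1 the cells above 10% were instead the shallow ones, at a median of 23346.5 UMIs against 46374 for those from 1% to 10%.

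Low depth and a low mitochondrial share did not go together in the other classes. Secretory-Reg4-Ang4, found in the TNF-treated wild-type library with 246 cells, had a median of 1957.5 UMIs, below Progenitor.3, but a median mitochondrial share of 3.75%. Within Progenitor.3 the median share was 0.637% in the 94 cells under 5000 UMIs, 1.24% in the 84 cells from 5000 to 10000, 0.835% in the 86 cells from 10000 to 20000 and 0.755% in the 41 cells above 20000. The low share was therefore seen at each depth, while Progenitor.1 cells from 5000 to 10000 UMIs (15 cells) had a median of 8.89% and those from 10000 to 20000 (113 cells) one of 8.05%.

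**Figure D1:**
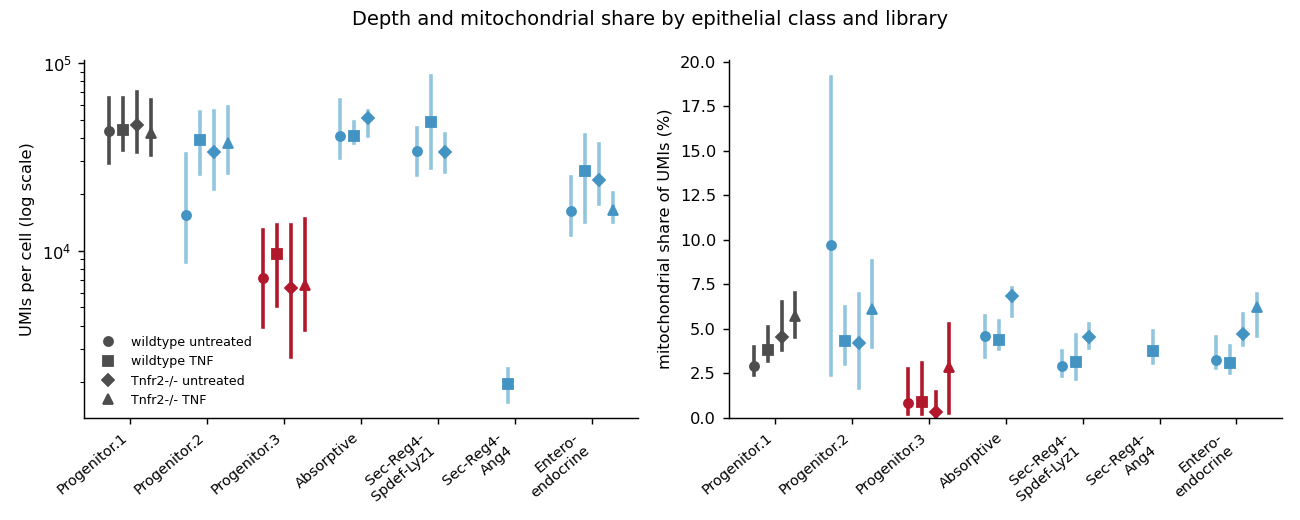
Median UMIs per cell (left, log axis) and median mitochondrial share of UMIs in percent (right) for each epithelial class with at least 10 cells in each library, with bars from the lower to the upper quartile over cells. Progenitor.3 sits between 6364 and 9570 UMIs, with medians of 0.346% to 2.84% mitochondrial, and the Secretory-Reg4-Ang4 class lies lower in UMIs but at 3.75% mitochondrial.

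The label was then checked against the markers Hist1h3c, Stmn1 (stathmin, which destabilizes microtubules), Pclaf (a PCNA-binding factor of replication), Hmgb2 (a chromatin protein) and Birc5 (survivin, of the mitotic chromosomal passenger complex). All levels that follow are CPM of the UMIs summed over the cells of a class in a library, and differences are log2(CPM + 1) of Progenitor.3 minus that of Progenitor.1 in the same library. The classes were built by clustering these same counts, so the differences describe the class and were not tested.

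Hist1h3c stood at 67.5 CPM (exact Poisson interval 54.8 to 82.1), 208 (187 to 230), 98.0 (73.2 to 129) and 65.8 (26.4 to 136) in Progenitor.3, and at 45.6, 76.4, 52.5 and 34.5 CPM in Progenitor.1. The difference was 0.56, 1.43 and 0.89 log2 in the 3 libraries with at least 50 Progenitor.3 cells, highest with TNF in the wild type. Stmn1 stood at 530, 909, 565 and 197 CPM against 415, 423, 326 and 379, a difference of 0.35, 1.10 and 0.79. The last library ran the other way, with 21 Stmn1 UMIs in its 11 Progenitor.3 cells.

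Pclaf stood at 173, 259, 134 and 37.6 CPM against 109, 122, 109 and 112, with differences of 0.66, 1.08 and 0.29. Birc5 stood at 201, 252, 168 and 103 CPM against 153, 119, 137 and 118, with differences of 0.39, 1.07 and 0.29. Hmgb2 stood at 721, 1101, 584 and 592 CPM against 481, 535, 528 and 545, with differences of 0.58, 1.04 and 0.15. In these sums the 5 markers were thus higher than in Progenitor.1 in all 3 libraries, by less than 2-fold outside the TNF-treated wild-type one. A few deep cells weigh on the sums of the untreated wild type. By the mean over cells, where each cell counts the same, Hist1h3c was at least 2-fold higher in all 3 libraries. The size of the differences, and the lead of the TNF-treated library, thus depend on how cells are weighted.

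Mki67 and Top2a, the general markers of division that were read singly, did not share the direction. Their annotated transcripts are long, at 10061 and 5221 bases, and long transcripts as a group were lower in the class, as given below. The groups of S phase and of mitosis genes are given below as well. Mki67, the Ki-67 antigen of cycling cells, stood at 83.8, 132, 33.9 and 84.6 CPM in Progenitor.3 against 174, 225, 200 and 225 in Progenitor.1, and was lower by log2 differences of -1.04, -0.76 and -2.52. Top2a, the topoisomerase of S phase and mitosis, stood at 113, 184, 132 and 179 CPM against 147, 185, 217 and 291, with differences of -0.39, -0.01 and -0.72. The name histone-rich held in the summed UMIs, but not every marker of division was raised. The main histone messages lack a poly(A) tail, and the share of them that was captured is not known. Histone UMIs therefore need not follow the amount of histone RNA in a cell.

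The markers were not carried by all members. At least 1 UMI of all 5 markers was found in 89 of 305 cells (29.2%), and 29 cells had none of them. As depth sets these counts, each cell was thinned to 1500 UMIs, which left out 12 of the 305 Progenitor.3 cells and 0 of the 1623 Progenitor.1 cells. Hist1h3c was then found in 15.0% of Progenitor.3 cells (11.1 to 19.6) and 6.59% of Progenitor.1 cells, and in 0.874% of the thinned mesenchymal cells of the same libraries. Stmn1 was found in 54.3% (48.4 to 60.1) against 35.6%, with 13.2% in the mesenchymal cells.

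Hmgb2 was found in 57.3% of Progenitor.3 cells (51.5 to 63.1) against 37.3% of Progenitor.1 cells, Birc5 in 25.6% (20.7 to 31.0) against 13.5%, and Pclaf in 21.5% (16.9 to 26.6) against 12.3%. The mesenchymal cells had 10.3%, 4.06% and 4.17% for these 3 genes. Without thinning the same shares were nearly level for Hist1h3c (37.4% and 35.7%), Birc5 (53.1% and 53.2%) and Pclaf (51.8% and 51.7%), and lower in Progenitor.3 for Stmn1 (85.6% and 91.5%) and Hmgb2 (78.4% and 94.3%). Detection at equal depth thus followed the CPM, and detection at the depth as sequenced did not.

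Mki67 was found in 13.3% of thinned Progenitor.3 cells (9.64 to 17.7) and in 19.5% of Progenitor.1 cells. Hist1h3c was not particular to the class, since 21.1% of the thinned Secretory-Reg4-Ang4 cells had it. Krt8, a keratin of simple epithelia, was found in 90.8% of Progenitor.3 cells, 93.8% of Progenitor.1 cells and 3.65% of mesenchymal cells, and Epcam, an epithelial adhesion protein, in 85.3%, 94.0% and 2.67%. By these 2 genes the cells were epithelial, as their class name says.

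**Figure D2:**
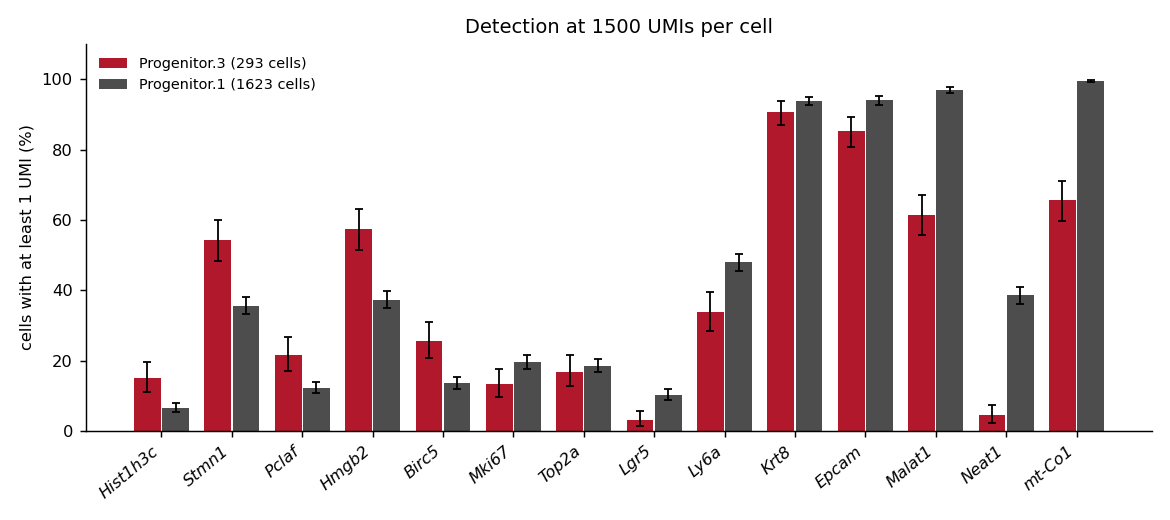
Percent of cells with at least 1 UMI of each gene after thinning every cell to 1500 UMIs, for 293 Progenitor.3 and 1623 Progenitor.1 cells, with bars for the 95% Clopper-Pearson interval over cells. The 5 class markers were found in a larger share of Progenitor.3 cells, while Malat1, Neat1 and mt-Co1 were found in a smaller one (61.4% against 96.9% for Malat1).

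Across genes, 2595 reached 50 CPM in Progenitor.3 or Progenitor.1 in each of the 3 libraries and were compared. At least 2-fold higher in Progenitor.3 in all 3 were 0 genes (0% of those tested), and at least 2-fold lower were 73 (2.81%). Without a size limit, 579 genes (22.3%) were higher and 964 (37.1%) lower in all 3. When every cell was given the same weight by averaging CPM over cells, 5 of 2655 genes (0.188%) were at least 2-fold higher, Hist1h3c and the secretory genes Reg4, Spink4, Sval1 and Tff3, and 122 (4.6%) were lower, of which 57 were among the 73. The median over all tested genes was -0.18, 0.01 and -0.01 log2 by UMI totals and 0.11, 0.24 and 0.19 with edgeR's TMM scaling, which raises each Progenitor.3 difference by that step.

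The 10 genes with the largest rise, by the smallest difference over the 3 libraries, included Hist1h3c and lay between 0.45 and 1.48 log2. Rps26, a protein of the small ribosomal subunit, stood at 4757, 5482, 6039 and 5929 CPM against 3190, 3352, 2972 and 2992 in Progenitor.1, a rise of 0.58, 0.71 and 1.02. Lsm5 and Lsm8, of the ring that binds U6 RNA in the spliceosome, were higher by 0.57, 0.76 and 0.50 and by 0.52, 0.69 and 0.71. Hist1h4d, a histone H4 gene, gave 110, 276, 51 and 9 UMIs and differed by 0.49, 1.25 and 0.60.

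The other 5 had varied roles. Hmgn2, a nucleosome-binding protein, was higher by 0.47, 1.07 and 0.59, and Rgcc, a regulator of the cell cycle, by 0.49, 1.11 and 1.34. Cox17, a copper chaperone for cytochrome oxidase, was higher by 0.61, 0.49 and 0.45, and Lars2, the mitochondrial leucyl-tRNA synthetase, by 0.47, 1.48 and 0.92. Pkig, an inhibitor of protein kinase A, was higher by 0.46, 0.56 and 0.72.

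The falls were larger. Neat1, the long nuclear RNA around which paraspeckles form, stood at 21.8, 38.0, 18.9 and 150 CPM in Progenitor.3 against 117, 395, 494 and 1031 in Progenitor.1, and was lower by log2 differences of -2.37, -3.34 and -4.64. Malat1, another abundant nuclear RNA, stood at 1163, 1877, 1378 and 5797 CPM against 3936, 5385, 8278 and 9452, with differences of -1.76, -1.52 and -2.59. Malat1 had 0 UMIs in 46 of 305 Progenitor.3 cells and in 0 of 1623 Progenitor.1 cells. Both were nuclear RNAs, and both were lower in all 4 libraries.

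Several others of the 10 largest falls encode proteins of the cell cortex and its junctions. Fat1, a giant protocadherin, stood at 10.9, 11.7 and 3.77 CPM in the 3 libraries against 53.9, 75.8 and 68.1, and differed by -2.20, -2.60 and -3.86. Ahnak, a very large scaffold under the membrane, stood at 117, 43.9, 30.2 and 301 CPM against 422, 382, 642 and 474, and differed by -1.84, -3.09 and -4.37. Iqgap1, a scaffold of actin signaling, stood at 54.5, 37.4, 11.3 and 65.8 CPM against 209, 232, 206 and 170, and differed by -1.92, -2.60 and -4.07.

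Sptbn1 (a spectrin) differed by -1.71, -2.75 and -3.46, and Lmo7 (an actin-linked junction protein) by -2.14, -2.19 and -2.61. Cldn4, a tight junction claudin, stood at 46.4, 88.9, 18.9 and 160 CPM against 169, 364, 191 and 251, with differences of -1.84, -2.02 and -3.27. Thbs1, a secreted matrix glycoprotein, differed by -2.71, -2.36 and -2.07. Clu, which marks injury-induced revival stem cells, stood at 10.9, 35.1, 41.5 and 75.2 CPM against 499, 115, 312 and 97.3, with differences of -5.39, -1.68 and -2.88.

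Against every other epithelial class with at least 20 cells in a library, 0 of 3402 genes (0%) were at least 2-fold higher in Progenitor.3 and 37 (1.09%) were lower in all 3 libraries. Among the 37, Cldn4 was below each other class by at least 1.84 log2 and Neat1 by at least 1.80, and Fat1, Akap9 and Akap13, the last 2 being anchors of protein kinase A, by at least 1.63, 1.60 and 1.54. The immediate-early transcription factor genes Jun, Atf3 and Fosb were among the 37 as well. Rps26, at 0.58 or more above each other class, had the largest rise by this measure.

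**Figure D3:**
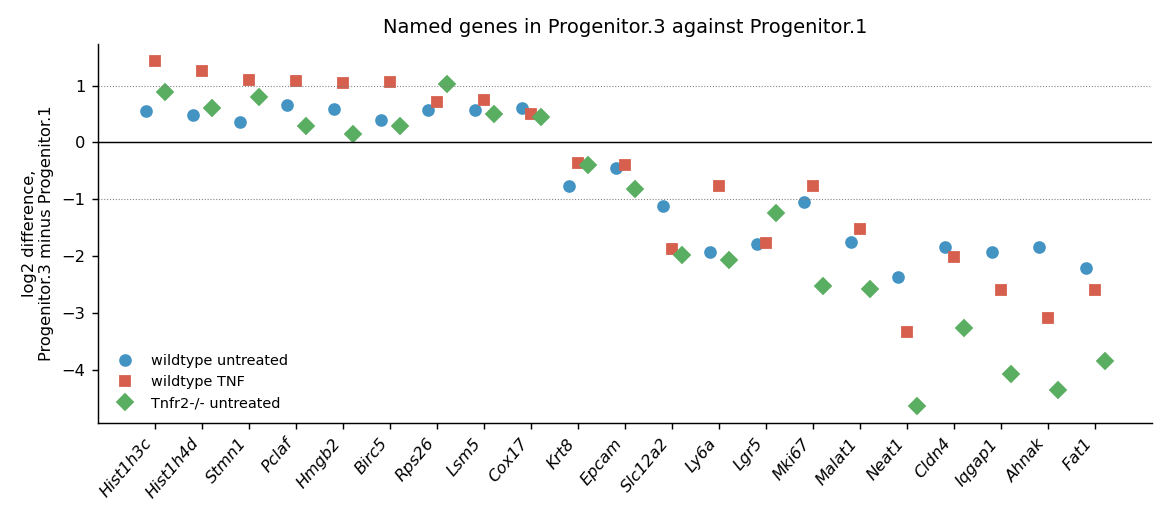
Log2 difference in CPM + 1 between Progenitor.3 and Progenitor.1 for 21 named genes, with 1 point for each of the 3 libraries used. The class markers lie between 0.15 and 1.43 above 0, and Neat1, Fat1 and Ahnak lie between 1.84 and 4.64 below it.

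Gene groups were counted by members higher or lower in all 3 libraries, and each count reads against the 22.3% higher and 37.1% lower of all tested genes. Of 83 tested proteins of the cytosolic ribosome, 71 were higher than in Progenitor.1 in all 3 libraries and 0 lower, with medians of 0.16 to 0.36 log2. Such genes have many processed copies in the genome, and reads of single members are uncertain. In cells thinned to 1500 UMIs they took a median of 34.5% of UMIs in Progenitor.3 and 30.4% in Progenitor.1, and 12.9% to 25.5% in the other epithelial classes. Nuclear genes of oxidative phosphorylation were higher in 44 of 74 and lower in 4, with medians of 0.13, 0.14 and 0.19, while the mitochondrially encoded genes were higher in 0 of 12 and lower in 2.

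Of 26 chromatin proteins tested, 20 were higher and 1 lower in all 3 libraries, with medians of 0.25, 0.67 and 0.26, and of 8 histone genes tested 5 were higher and 1 lower, with medians of 0.21, 0.85 and 0.39. S phase genes were higher in 7 of 14 and lower in 0. Genes of G2 and mitosis were higher in 8 of 23 and lower in 6, not far from the shares of all genes, with medians of 0.27, 0.94 and -0.09. By the mean over cells the medians were 0.63, 0.56 and 0.30 for the chromatin proteins. They were 0.59, 0.92 and 0.40 for the histone genes and 0.83, 0.85 and 0.30 for those of G2 and mitosis. The markers that define the class belong to these groups, so the counts are no independent evidence of their direction.

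The chromatin level did not follow depth inside the class. Chromatin genes summed to 18952, 20646, 21888 and 19603 CPM in Progenitor.3 cells under 5000, from 5000 to 10000, from 10000 to 20000 and above 20000 UMIs. In Progenitor.1 they summed to 9783, 11922 and 14848 CPM in the last 3 of these ranges. Histone genes summed to 1578, 1961, 1938 and 1689 CPM in Progenitor.3 and to 345, 1065 and 1238 in Progenitor.1. For both groups the gap to Progenitor.1 was widest from 5000 to 10000 UMIs.

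Stem and regenerative genes were lower. Of 8 genes of the crypt stem cell list 6 were lower in all 3 libraries and 1 higher, with medians of -1.02, -1.04 and -0.89. Lgr5, the receptor that marks crypt base stem cells, stood at 11.6, 18.7, 28.3 and 65.8 CPM against 42.7, 65.9, 68.0 and 120, and was found in 3.07% of thinned Progenitor.3 cells (1.41 to 5.75) against 10.3%. Of 10 regenerative genes 9 were lower and 0 higher, with medians of -1.23, -0.70 and -1.56. Ly6a, which encodes Sca-1 and marks the fetal-like state of repair, stood at 320, 476, 230 and 197 CPM against 1222, 816, 968 and 593, and differed by -1.93, -0.78 and -2.07.

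General epithelial genes were lower in 14 of 19 and higher in 0, with medians of -0.50, -0.40 and -0.58. Krt8 differed by -0.77, -0.36 and -0.39 and Epcam by -0.45, -0.39 and -0.82. Immediate-early and heat shock genes were lower in 12 of 15 and higher in 0, with medians of -0.55, -1.19 and -0.73, and genes of the endoplasmic reticulum were lower in 14 of 19 and higher in 1. Proteins of the mitochondrial ribosome were higher in 24 of 64 and lower in 4.

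Markers of leukocytes, tuft cells, endothelium and erythroid cells were near 0 in Progenitor.3, while those of mesenchyme were low but present. The mesenchymal list summed to 36.8, 60.8, 5.65 and 18.8 CPM, against 21.9, 35.8, 14.6 and 23.0 in Progenitor.1. It was thus higher than in Progenitor.1 in both wild-type libraries and lower in both Tnfr2-/- ones. Leukocyte markers summed to 0, 1.75, 5.65 and 0 CPM, tuft markers to 0.682, 0, 0 and 0, and endothelial and erythroid markers to 0.682, 0, 0 and 0.

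Goblet cell genes, which encode mucus and its partners, had most of their UMIs over the class in few cells. Their summed level was 7015, 4916, 916 and 1391 CPM in Progenitor.3 and 1911, 2007, 1219 and 2547 in Progenitor.1. In the median Progenitor.3 cell they took 0.0665% of UMIs, close to the 0.0531% of Progenitor.1 and far from the 7.12% of Secretory-Reg4-Spdef-Lyz1, the goblet-like class. Above 1% of UMIs stood 30 of 305 cells (9.84%), and these held 83.8% of the goblet UMIs of the class. They were 9 cells with 91.0% of the list's UMIs in the untreated wild type, 18 with 79.4% in the TNF-treated wild type and 3 with 32.3% in the untreated Tnfr2-/- library. Progenitor.1 was uneven as well, with 51 of 1623 cells (3.14%) above 1% and 54.1% of its goblet UMIs in them.

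Depth was just as uneven. The deepest Progenitor.3 cell, in the untreated wild-type library, held 223496 UMIs, or 15.2% of the class total there, and the next held 144019 (9.82%) and 134430 (9.16%). Cells above 60000 UMIs numbered 5, 1, 0 and 0. Without these 6 cells, 2 genes were at least 2-fold higher than in Progenitor.1 and 128 lower, 72 of them among the 73. A doublet caller marked 42 of 6155 cells (0.682%), 1 of them in Progenitor.3.

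The falls shared transcript length, which the class name does not use. Length was that of the longest annotated coding transcript of a gene, which need not be the one expressed here. By it the tested genes had a median of 2281 bases (2581 genes with a length). The 71 genes with a length among the 73 that were 2-fold lower had a median of 6036 bases, and the 574 among the 579 that were higher in all 3 libraries had a median of 1243. Fat1 has 14814 bases, Ahnak 18100 and Iqgap1 7444, whereas Rps26 has 681, Lsm5 494 and Hist1h3c 630. By this measure Cldn4 with 1816 bases and Clu with 1810 were short among the falls. Cox17 with 3690 and Lars2 with 3894 were long among the rises, but whether shorter forms of them were expressed was not read.

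The gradient ran through all bins of length. For transcripts under 750 bases (160 genes) the median difference from Progenitor.1 was 0.26, 0.20 and 0.21 log2, and 84.4%, 85.6% and 79.4% of them were higher. For those above 6000 bases (251 genes) it was -0.63, -0.75 and -0.74, and 3.59%, 10.4% and 13.1% were higher. The other epithelial classes, read against Progenitor.1 in the same way, had medians between -0.31 and 0.35 for the longest transcripts over all 4 libraries. Without histone, ribosomal and oxidative phosphorylation genes the Progenitor.3 values for the longest bin were -0.64, -0.75 and -0.74, and in cells from 3000 to 20000 UMIs they were -1.36, -1.36 and -1.32. In that range of depth the low level of long transcripts was not particular to Progenitor.3, since Secretory-Reg4-Spdef-Lyz1 (9, 21 and 5 cells) stood at -0.87, -2.07 and -0.32 and Secretory-Reg4-Ang4 (22 cells) at -0.67.

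**Figure D4:**
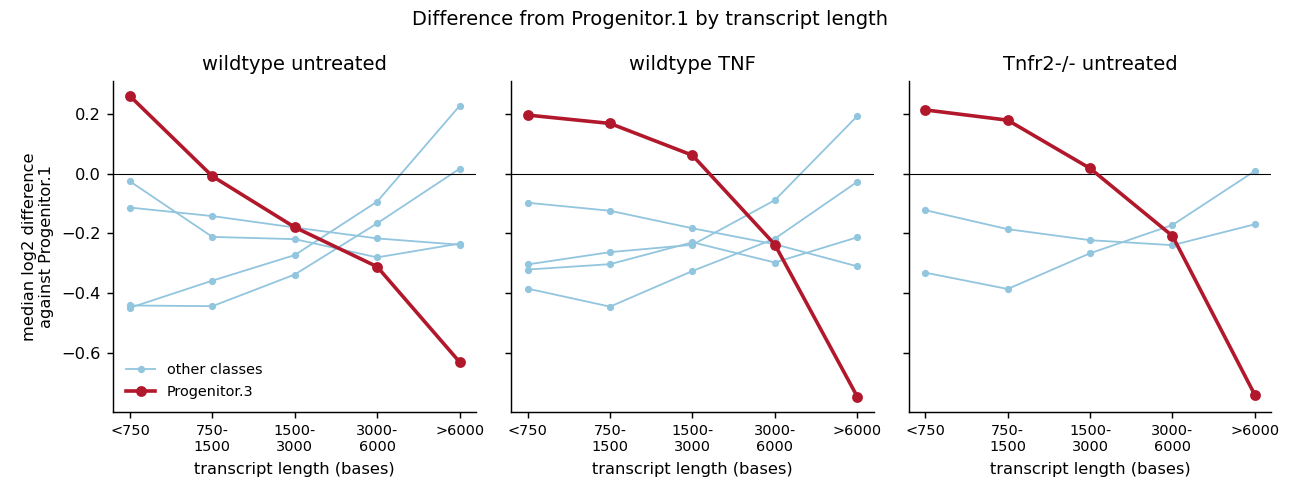
Median log2 difference from Progenitor.1 by length of the longest annotated coding transcript in bases. The 3 libraries used are shown, for Progenitor.3 (red) and the other epithelial classes (light blue). Progenitor.3 falls from between 0.20 and 0.26 for transcripts under 750 bases to between -0.63 and -0.75 for those above 6000.

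The same held cell by cell. Transcripts above 3000 bases gave a median of 17.0%, 17.5%, 18.4% and 17.8% of the UMIs of a Progenitor.3 cell and 21.5%, 23.0%, 22.9% and 23.2% of those of a Progenitor.1 cell. In cells from 3000 to 20000 UMIs the shares were 17.0% (211 cells) and 26.2% (132 cells). By mitochondrial share the values were 17.6% and 21.3% in cells under 1%, 18.4% and 22.4% in cells from 1% to 10%, and 13.3% and 25.5% in cells above 10%. The 46 Progenitor.3 cells without a Malat1 UMI had 16.4%. Secretory-Reg4-Ang4, the class of lowest depth, had 21.6%. The part of depth, mitochondrial share and RNA quality in the lower level of long and nuclear transcripts was not tested.

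At equal depth most neighbours of Progenitor.3 cells, over all libraries, were still of their class. The classes were made by clustering these same counts, so this describes the class and is no independent evidence of it. Each epithelial cell was thinned to 1500 UMIs and its 15 nearest neighbours were found on 2000 variable genes. Of the neighbours of Progenitor.3 cells 58.8% were Progenitor.3, where the class made up 7.13% of the cells. Another 36.5% were Progenitor.1, which made up 39.5% of the cells, and 1.23% were Progenitor.2, which made up 31.2%. Most neighbours from outside the class were thus Progenitor.1. By library the own share ran from 40.6% in TNF-treated Tnfr2-/- to 61.2% in the TNF-treated wild type, and 68.6% of the cells had mostly Progenitor.3 neighbours. Without thinning the own share was 83.3%. When histone, cell cycle and mitochondrial genes were removed before the search it was 59.8%, with 34.9% Progenitor.1. Over all libraries no other class gave more than 2.09% of the neighbours in the search at 1500 UMIs and 2.89% in the search without those genes. In the 11 cells of the TNF-treated Tnfr2-/- library alone, 20.0% of neighbours were Progenitor.2. Progenitor.1 cells, in the same search at 1500 UMIs, had 82.1% neighbours of their own class.

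The receptor was read first for the comparison of genotypes. Tnfrsf1b stood at 0, 5.26, 0 and 0 CPM in Progenitor.3 and at 4.99, 12.1, 0.980 and 2.15 in Progenitor.1. As it was at 0 in untreated wild-type Progenitor.3 too, the genotype labels could not be checked in these cells. The comparisons with TNF and between genotypes share the untreated wild-type library, and that library holds 5 of the 6 cells above 60000 UMIs.

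With TNF in wild-type Progenitor.3, 82 of 2618 genes (3.13%) were at least 2-fold higher with counting intervals that did not overlap, and 28 (1.07%) were lower. Without the cells above 60000 UMIs the counts were 70 and 12, of which 39 and 5 were shared with the first. Cyba and Nox1, which encode partners in the superoxide-producing NADPH oxidase of the colon, were both higher. Cyba stood at 116 CPM untreated (171 UMIs) and 808 CPM with TNF (1382 UMIs), a log2 difference of 2.78, and Nox1 at 23.9 and 153 CPM, a difference of 2.63. Without the deep cells these were 2.20 and 1.99, and in Progenitor.1 the same genes differed by 2.27 and 2.47.

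Cp, the copper oxidase ceruloplasmin, stood at 4.09 and 63.7 CPM, a difference of 3.67 (2.93 without the deep cells, 2.90 in Progenitor.1). AW112010, an interferon-responsive transcript, stood at 17.0 and 185 CPM, a difference of 3.37 (2.79 and 2.24), and Ecscr at 6.82 and 74.8 CPM, a difference of 3.28 (2.37 and 2.40). These 5 were the largest rises among genes with a named symbol, and they were also higher in Progenitor.1, by 2.24 to 2.90 log2. The unnamed gene model Gm26917, chosen after its values were seen, ranked above Cyba at 2.79, and differed by 0.22 in Progenitor.1. Of 11 histone genes tested 6 were higher, with a median of 1.07 log2, beside 3.13% of all tested genes and a median over them of 0.15. Without the cells above 60000 UMIs 0 of the 11 were, with a median of 0.50 where that over all genes was -0.02. Of 31 genes of G2 and mitosis 2 were higher, and 0 of 32 without those cells, so the calls in both groups rested on the deep cells.

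The 5 largest falls were less firm. Lyz1, the lysozyme of deep secretory cells, stood at 338 CPM untreated and 37.4 with TNF, a difference of -3.14, and of -3.90 without the deep cells. Cyp2c55, a cytochrome P450 of the colon, differed by -3.69, and by -1.34 without them. Muc3, a membrane mucin, and the goblet genes Zg16 and Fcgbp differed by -3.79, -3.27 and -2.78, but by -0.19, 0.82 and -0.15 without the deep cells, so these 3 falls rested on the cells above 60000 UMIs.

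In untreated Tnfr2-/- against untreated wild-type Progenitor.3, 94 of 2632 genes (3.57%) were at least 2-fold higher and 85 (3.23%) lower, and 62 and 72 without the deep cells, with 39 shared in each direction. Jaml, an adhesion molecule, stood at 6.82 CPM in the wild type (10 UMIs) and 62.2 in Tnfr2-/- (33 UMIs), a difference of 3.02, and of 2.31 without the deep cells. Slfn2, a schlafen family gene, differed by 3.01 and 2.18, Mmp7, a matrix metalloproteinase, by 2.61 and 3.49, and Sox21, a transcription factor, by 2.14 and 2.89. Pyy, an enteroendocrine hormone, rested on 7 and 35 UMIs. Its difference of 3.54 turned to -1.50 in cells from 3000 to 20000 UMIs.

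Tstd1, a sulfurtransferase domain gene, had 228 UMIs in untreated wild-type Progenitor.3 (155 CPM) and 0 in untreated Tnfr2-/-, at least 27.5-fold lower. Progenitor.1 held it at 114, 105, 3.19 and 1.36 CPM, low in both Tnfr2-/- libraries. Mptx1, a pentraxin of deep secretory cells, had 119 and 0 UMIs (at least 14.3-fold lower), and Lyz1 had 496 and 3 UMIs. Without the deep cells the bounds were 21.9-fold for Tstd1 and 26.7-fold for Mptx1. Slpi, a protease inhibitor, had 132 and 0 UMIs (at least 15.9-fold lower), but 127 of the 132 UMIs came from the deep cells, and the 5 that were left gave a level near what a count of 0 allows. Of 25 goblet genes 13 were tested and all 13 were lower in Tnfr2-/-, beside 3.23% of all tested genes. Without the deep cells 7 of the 9 tested were. Testing asked for 50 CPM in either library, and each of the 13 reached it in the wild type. The list summed to 7015 CPM there and to 916 in Tnfr2-/-, so the count largely follows from the filter and is no separate evidence. The untreated Tnfr2-/- library had 3 of 51 Progenitor.3 cells (5.88%) above 1% goblet UMIs, against 9 of 95 (9.47%) in the wild type. Of 12 mitochondrially encoded genes 9 were lower, beside 3.23% of all tested genes, and 8 were lower without the deep cells. In Progenitor.1 these 8 differed by -0.07 to 0.73 log2, so a fall of this size was not seen there. Progenitor.3 cells above 10% mitochondrial were 11 of 95 in the untreated wild type and 1 of 51 in untreated Tnfr2-/-, and such cells weigh on the sums.

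Xist, the RNA of the inactive X chromosome, stood at 118, 191, 0 and 0 CPM in Progenitor.3 and at 670, 830, 0.0817 and 0 in Progenitor.1, and was at least 20.9-fold lower in untreated Tnfr2-/- Progenitor.3. Without the deep cells, which held 151 of its 173 untreated wild-type UMIs, the bound was 5.07-fold. Y-linked genes summed to 0.682, 32.7, 0 and 0 CPM in Progenitor.3 and to 6.12, 28.4, 0.109 and 0 in Progenitor.1. The genotypes therefore differed in Xist, and the untreated and TNF-treated wild-type cultures in Y-linked RNA. With 1 library each, what else these cultures differed in cannot be told apart from genotype or from TNF.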

How the data were processed

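The authors deposited raw UMI counts per gene and cell for 4 libraries in 1 matrix (mm10, Cell Ranger 5.0.0 per the submitters' processing notes) with a cell annotation that holds their Leiden classes and a size factor score per cell. Cells under 100 UMIs and mixed epithelial and mesenchymal doublets had been removed per the methods. Members, lists and rules were chosen with earlier results of these data known.

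UMIs were summed per class and library, scaled to CPM and compared as log2(CPM + 1) within each library having at least 50 Progenitor.3 cells (3 libraries). Genes reaching 50 CPM in either class or group compared, in each library, were read against a 2-fold limit, which had to hold in all 3. For TNF and genotype, exact Poisson intervals (95%) also had to be separate. With 1 library per group no p-value was computed. Named genes were the class markers, 9 fixed genes, the 10 largest rises and falls against Progenitor.1, the 5 largest for the other comparisons, and up to 4 members of each of 26 lists. Others were chosen after their values were seen, and 1 gene that the rule names is not reported here.

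Transcript lengths, positions and stem-loops came from GENCODE M21 basic (GRCm38), which matched 30240 gene identifiers and missed 120. Lengths and stem-loops were those of the longest coding transcript of each gene. Alternatives were pseudocount 10, minimum 20 CPM or none, TMM, totals without mitochondrial genes, mean over cells, scrublet calls removed, cells from 3000 to 20000 UMIs, each library left out, and, chosen after seeing the data, removal of Progenitor.3 cells above 60000 UMIs. As a check of the code, Poisson sums were simulated for both classes from 1 shared profile per library (2530 genes). Genes at 50 CPM or more were changed 4-fold, and 199 of 200 passed the 2-fold limit (99.5%) with 0 false calls. The simulation held no unevenness between cells, no deep cells and no effect of transcript length. It therefore gives no error rate for the calls in the real data. Barcodes shared between libraries numbered 3, with 0 in Progenitor.3. Python 3.11.15, numpy 2.4.6, scipy 1.17.1, scanpy 1.11.5, R 4.3.3 and edgeR 4.0.16 were used.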

Additional observations from a re-analysis of the deposited data

How the results depend on the processing

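The depth of Progenitor.3 limits these values: the class summed to no more than 1710276 UMIs in each library, a few deep cells weighed on the sums of the untreated wild type, and 11 cells stood for the TNF-treated Tnfr2-/- culture. The cause of the changes below was not tested.

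As shares of all cells in place of epithelial cells, the untreated and TNF-treated wild-type values became 3.67% and 10.1%. Genes 2-fold higher than in Progenitor.1 (0) became 3 with no minimum, 5 as means over cells, 14 in cells from 3000 to 20000 UMIs and 2 without cells above 60000. Leaving out the untreated wild-type, TNF-treated wild-type or untreated Tnfr2-/- library gave 3, 0 and 6. Genes lower (73) became 196 at 20 CPM, 467 with no minimum, 36 with TMM, 122 as means, 349 in the 3000 to 20000 range and 128 without the deep cells, and 171, 112 and 86 with those 3 libraries left out in turn. Higher than all other classes (0) became 7, 2 and 2 in that range, without the untreated wild type and without the deep cells. Lower than all (37) became 14 with pseudocount 10, 76 with no minimum, 12 with TMM, 73 as means, 12 in the range, 121 without the untreated wild type and 94 without the deep cells.

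Higher with TNF (82) became 177 at 20 CPM and 246 with no minimum. Lower with TNF (28) became 80, 113, 53 with TMM and 12 without the deep cells. Higher in Tnfr2-/- (94) became 50 with pseudocount 10, 162 at 20 CPM, 188 with no minimum, 58 with TMM, 262 as means, 57 in the range and 62 without the deep cells. Lower in Tnfr2-/- (85) became 147, 163, 135 with TMM and 194 as means. Lists at least 0.5 log2 from all genes (4) became 8 in the range. Mean detection of the markers (34.7%) was 61.2% without thinning and 48.7% at 3000 UMIs, and the own share of neighbours (58.8%) was 83.3% without thinning.

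Reversed in cells from 3000 to 20000 UMIs were Muc3 (0.091), Fcgbp (0.070) and Zg16 (0.97) with TNF and Pyy by genotype (-1.50). Zg16 also reversed without the deep cells (0.82). Of 1665 values of named genes and lists under alternatives, 1472 moved little, 188 moved and 5 reversed. No paired analysis was possible because each group had 1 library.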
